A study of Mus musculus with 14 samples.

Results

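Mt1, Ftl1, Sod1 and Gsr are the metallothionein, ferritin and antioxidant enzyme genes of a small liver array. Each was matched by accession, symbol or an older synonym, and 1 oligonucleotide was matched for each. The set thus holds 4 of the 271 different mouse genes and 4 of the 284 mouse oligonucleotides. Descriptive names of the oligonucleotides were not searched. All 4 passed the filter on dim signals, which left 134 genes for testing. The genes were selected from genotype values and animal-to-animal spread already seen on these arrays, so those values are given as a description and carry no test. Liver RNA of 7 mthr-/- and 7 wild type C57BL/6 mice aged 15 to 20 weeks was measured, with 1 array per animal. The labels name primary hepatocytes as the cell type, and do not spell out mthr. From 5 weeks after weaning, homozygous animals received betaine at 2% (w/v) in the water they drank, while all animals ate standard chow, and the effects of genotype and of betaine cannot be told apart. Of the mthr-/- animals 4 were female and 3 male, and of the wild type animals 2 were female and 5 male. The arrays came from 4 slide series by their labels, written A, B, C and D below. There were 4 mthr-/- arrays and 1 wild type array in A, 2 mthr-/- and 4 wild type arrays in B, 1 mthr-/- array in D and 2 wild type arrays in C.

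Metallothioneins are small cysteine-rich proteins that bind zinc and copper, and in liver Mt1 is transcribed in response to metals through the zinc-sensing factor MTF-1, and also to glucocorticoids and inflammatory signals. Ferritin stores iron in a shell of heavy and light chains, of which Ftl1 encodes the light one. Sod1, the copper- and zinc-containing superoxide dismutase of the cytosol, turns superoxide into hydrogen peroxide, and Gsr, glutathione reductase, uses NADPH to regenerate the reduced glutathione that peroxidases consume.

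MTF-1 binds a short motif called the metal response element, and the promoters are shown because the member with the widest spread between mthr-/- animals on the log2 normalized scale, Mt1, is the textbook case of that element. RefSeq promoter windows on GRCm38.p6 were at hand for 3 of the 4 members. The stretches run from 100 bases before to 30 bases after the start given in that table, on the gene's strand, with the core of the element (TGCACNC or TGCGCNC) in capitals. They are chr8:94178989-94179118 on the plus strand for Mt1, chr7:45459857-45459986 on the minus strand for Ftl1 and chr16:90220662-90220791 on the plus strand for Sod1.
Mt1: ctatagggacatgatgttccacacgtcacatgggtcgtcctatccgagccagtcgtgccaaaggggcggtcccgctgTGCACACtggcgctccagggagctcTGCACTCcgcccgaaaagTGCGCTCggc
Ftl1: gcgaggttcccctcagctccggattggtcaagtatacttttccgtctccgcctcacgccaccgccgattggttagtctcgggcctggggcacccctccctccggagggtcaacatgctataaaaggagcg
Sod1: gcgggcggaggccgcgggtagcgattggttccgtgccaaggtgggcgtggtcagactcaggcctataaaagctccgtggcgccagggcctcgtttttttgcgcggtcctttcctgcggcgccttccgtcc

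In the windows of 300 bases, searched on both strands, the core matched 3 times in Mt1 and 0 times in Ftl1 and in Sod1. The Mt1 matches began at position -23, before the start in the RefSeq table, and at positions 3 and 21, after it. Of 32851 promoter windows of that length, 25.7% held at least 1 match and 1.97% held at least 3. A core of the antioxidant response element, the site of the factor NRF2, was searched as TGACNNNGC. It matched 1 time in Sod1, on the minus strand, and 0 times in Mt1 and Ftl1, and 12.4% of the windows held it. Positions count from the start in that table, and another start of the gene would move them and the window. The windows ran from 250 bases before to 50 bases after that start. For Mt1 that start may lie upstream of the one used in the literature. A count of 0 holds for the window alone, and bases beyond it were not searched. These matches are letters only, and the arrays measured no binding.

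The total background-subtracted signal of all mouse oligonucleotides was 16029 to 82510 on mthr-/- arrays and 14443 to 56948 on wild type arrays. An array had 123 to 186 oligonucleotides above background in mthr-/- and 70 to 155 in wild type, where 70 was wild type 6. The limit for this was the mean plus 2 SD of the plant control spots of the same array, and ran from -0.21 to 9.81. The 7 hepatocyte markers matched on the array (Alb, Apoa1, Fabp1, Apoh, Cps1, Arg1 and Mat1a) all passed the filter and made up 21% to 36.4% of the summed signal in mthr-/- and 7.70% to 43.9% in wild type, with 7.70% on wild type 6. The muscle markers Mb, Myh6 and Slc25a4 made up 0.0257% to 0.845% in mthr-/- and 0.018% to 1.91% in wild type, the highest on mthr-/- 6 and wild type 6. Titin cap, another muscle marker on the array, kept the files' name, was not matched to the list and is not in these shares. Endothelial and bile duct markers (Pecam1, Tek and Krt19) did not pass the filter, and no Kupffer cell or erythroid marker of the lists was matched on the array. In RNA of whole samples, fewer cells of a type and less RNA per cell cannot be told apart.

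Mt1 had the largest SD of the 4 members within mthr-/- on the log2 normalized scale. Its background-subtracted intensity was 906, 197, 316, 1088, 324, 158 and 87.8 on mthr-/- 1 to 7, against 186, 3.2, 171, 64.8, 91.2, 25.0 and 35.5 on wild type 1 to 7. All 14 values lay above the limit of their array, but on wild type 2 that limit was -0.21, and its Mt1 value of 3.2 lay below the limits of 11 other arrays. The spots of 1 array ran from 836 to 942 on mthr-/- 1, from 1.9 to 4.0 on wild type 2 and, more widely, from 653 to 1468 on mthr-/- 4.

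Array brightness differed, so Mt1 was also expressed as a percentage of the summed signal of its array. It then stood at 2.37%, 0.937%, 0.383%, 2.49%, 2.02%, 0.221% and 0.260% on mthr-/- 1 to 7, against 0.746%, 0.0223%, 0.516%, 0.294%, 0.221%, 0.168% and 0.0623% on wild type 1 to 7. Animals 1, 4 and 5 of mthr-/- stood far above the rest, animal 2 was next, and animals 3, 6 and 7 lay among the wild type animals. After normexp background correction and quantile normalization, the log2 normalized intensity of Mt1 averaged 8.51 ± 1.04 in mthr-/- and 7.54 ± 0.60 in wild type (SD, n = 7 each). The difference of 0.97 (SE 0.43) corresponds to 1.96-fold. On this scale 3 of 7 mthr-/- animals lay above every wild type animal, and the other 4 lay within the wild type range of 6.88 to 8.61. The offset of 50 draws dim values together, and with an offset of 0 the difference was 1.26 (SE 0.54). On the log2 scale of the percentages, which has neither the offset nor the quantile normalization, it was 2.19 (SE 0.81).

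**Figure D1:**
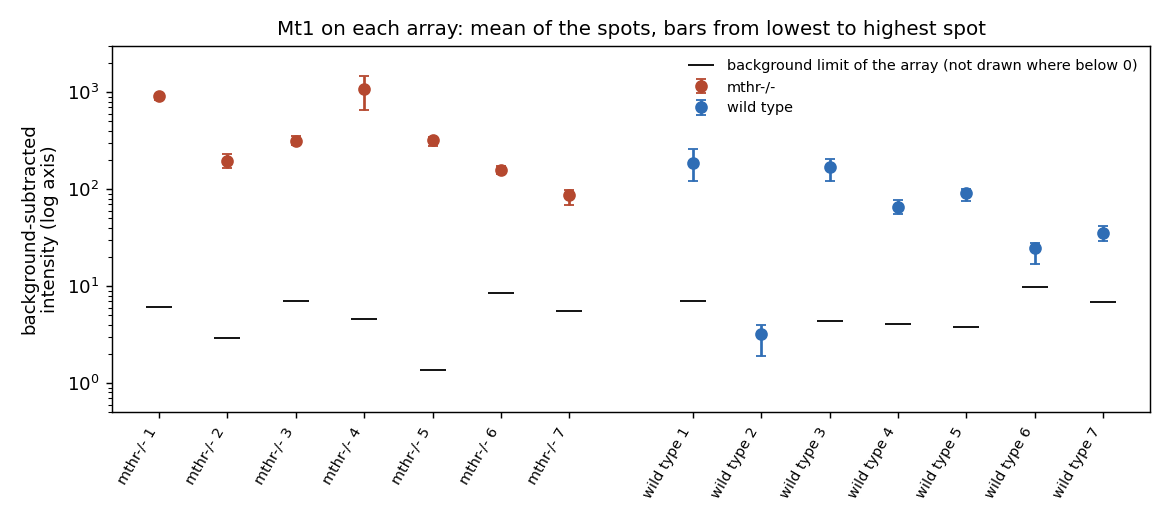
Background-subtracted intensity of Mt1 (log axis) on each array, mthr-/- arrays on the left and wild type arrays on the right; points are means of the spots, bars run from the lowest to the highest spot, and dashes mark the background limit of the array. The mthr-/- arrays lie between 87.8 and 1088 and the wild type arrays between 3.2 and 186, so the groups overlap.

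The authors' deposited value table holds linear, background-subtracted and scaled intensities of the same arrays. In it, Mt1 had a median of 193 in mthr-/- (lowest 47.6, highest 535) and of 37.0 in wild type (lowest 5.18, highest 164), and 4 of 7 mthr-/- animals lay above every wild type animal. The authors' deposited table of medians gives 313.5 for mthr-/- and 37.02 for wild type, a log10 ratio of 0.928 or 8.47-fold, and ranks Mt1 1st of its 103 ratios from the highest. That mthr-/- median equals the median of the 6 animals other than mthr-/- 7. With all 7 animals of the value table, Mt1 was 193.4 in mthr-/- against 37.02 in wild type, or 5.22-fold. The value table departs from the array files on 2 arrays, mthr-/- 7 and wild type 5, where 82 of 103 and 89 of 102 values differed by more than 1 unit. With the scaled spots of the array files throughout, the Mt1 medians were 193.2 in mthr-/- and 48.5 in wild type, or 3.98-fold. The Mt1 ratio therefore ranged from 3.98 to 8.47 with the animals and values used. From the array files, the medians of Ftl1 and Sod1 gave 0.973-fold and 0.999-fold. Those of Gsr, a dim gene, were 10.5 in mthr-/- and 7.5 in wild type, or 1.4-fold. In the authors' deposited table Ftl1 was at 0.967-fold, Sod1 at 0.975-fold and Gsr at 1.44-fold.

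Ftl1 was bright on every array, and its genotype difference was near 0 over all arrays and near 0.5 within slide series A and within series B. Its background-subtracted intensity had a lowest value of 1885, a median of 3112 and a highest value of 6146 in mthr-/-, against 851, 2132 and 6387 in wild type. As a share of the summed signal it ran from 7.09% to 14.9% in mthr-/- and from 5.89% to 14.3% in wild type. The highest share in mthr-/- was on animal 5 and the highest in wild type was on animal 6, which are the dimmest array of mthr-/- and the second dimmest of wild type. The log2 normalized intensity averaged 11.60 ± 0.35 in mthr-/- and 11.55 ± 0.52 in wild type (SD, n = 7 each), a difference of 0.05 (SE 0.23). All 7 mthr-/- animals lay within the wild type range. The difference was -0.08 without mthr-/- 5, -0.04 without wild type 1, -0.05 without wild type 2 and 0.20 without wild type 6. It was -0.33 (SE 0.35) with each array centred on its median and 0.40 (SE 0.27) with cyclic loess, so its sign depended on the scaling.

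Sod1 was measured at a lowest, median and highest background-subtracted intensity of 231, 636 and 1297 in mthr-/-, against 131, 318 and 976 in wild type. As a share of the summed signal it ran from 1.24% to 1.96% in mthr-/- and from 0.524% to 2.04% in wild type, where wild type 1 was lowest and the other 6 animals stood at 1.32% or more. The log2 normalized intensity averaged 9.15 ± 0.17 in mthr-/- and 8.92 ± 0.37 in wild type (SD, n = 7 each), and the difference was 0.23 (SE 0.15). Wild type 1 was at 8.21, against 8.66 to 9.25 for the other wild type animals. Without it the difference was 0.11 (SE 0.11). The sign depended on the scaling: with each array centred on its median the difference was -0.32 (SE 0.42).

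Gsr was dim. Its background-subtracted intensity had a lowest, median and highest value of 1, 23 and 51.2 in mthr-/-, against 3.7, 7.5 and 32 in wild type. It lay above the limit on 6 of 7 arrays in each genotype, and mthr-/- 5 and wild type 6 fell short. The log2 normalized intensity averaged 6.89 ± 0.06 in mthr-/- and 6.91 ± 0.11 in wild type (SD, n = 7 each), a difference of -0.02 (SE 0.05). At this signal the offset of 50 leaves little room for differences: with an offset of 0 the difference was -0.04 (SE 0.11). Wild type 1 was highest at 7.16, against 6.82 to 6.90 in the other wild type animals. Without it the sign turned, to 0.02 (SE 0.03). The sign also turned with other scalings, which gave 0.01 (SE 0.08) with arrays centred on their median and 0.52 (SE 0.26) with arrays centred on reference genes. Centring on reference genes moved the median of all genes by 0.46.

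**Figure D2:**
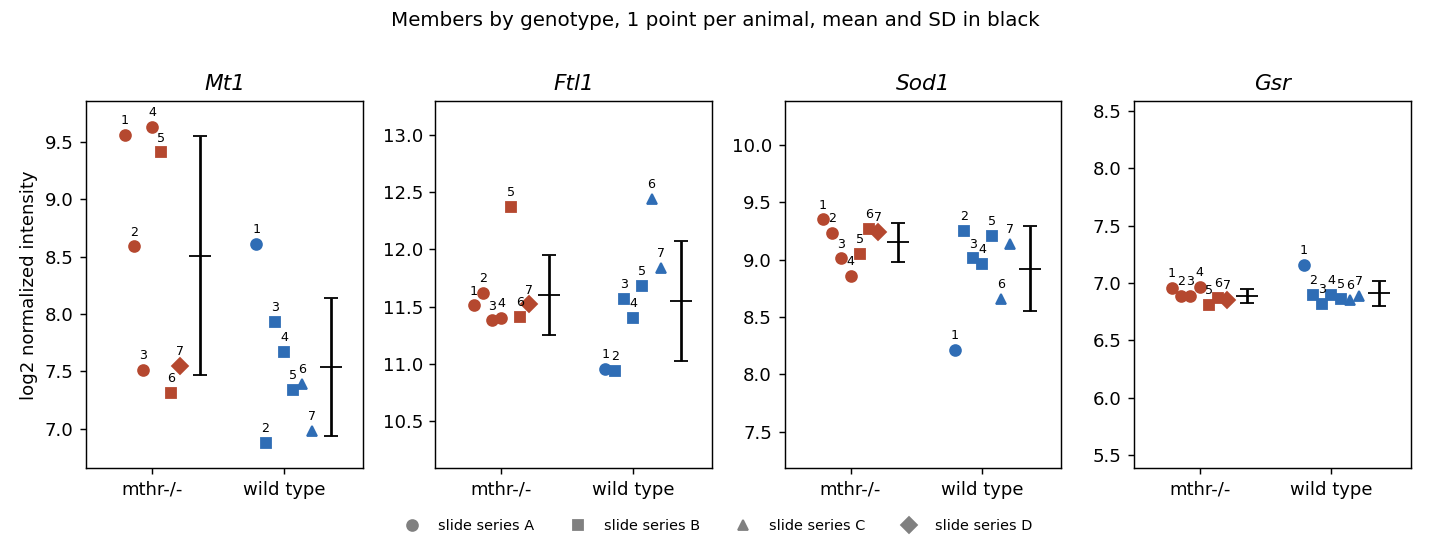
Log2 normalized intensity of the members in each animal, mthr-/- left and wild type right; symbols give the slide series, numbers the animal, and black bars the mean and SD. The 4 panels span the same number of log2 units. Mt1 is spread from 7.31 to 9.63 in mthr-/- and from 6.88 to 8.61 in wild type, while Gsr stays between 6.81 and 7.16.

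The genotypes were compared by limma over all 134 genes, which called 0 genes (0%) at an adjusted p below 0.05, and so 0 of the 4 members. No adjusted p was smaller than 0.578, while 10 genes reached an unadjusted p below 0.05. Since the members were chosen on this comparison, nothing is read from their count. Without normalization between arrays, where the median gene was shifted by 0.81, the same rule called 1 gene, Mt1, at 1.6 (SE 0.42), which is again a description. A fit that kept the slide series as a block, which takes the difference from series A and B, put Mt1 at 0.65 (SE 0.53), Ftl1 at 0.50 (SE 0.21), Sod1 at 0.37 (SE 0.18) and Gsr at -0.10 (SE 0.05). Within series A the Mt1 mean was 8.82 in mthr-/- (n = 4) and 8.61 on the only wild type array, a difference of 0.21. Within series B it was 8.36 in mthr-/- (n = 2) and 7.45 in wild type (n = 4), a difference of 0.91. Ftl1 differed by 0.51 within series A and 0.49 within series B, against 0.05 over all arrays, and the 2 wild type arrays of series C averaged 12.14. Sod1 differed by 0.90 within series A and 0.06 within series B, and Gsr by -0.23 and -0.03. The wild type value of series A rests on wild type 1 alone.

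**Figure D3:**
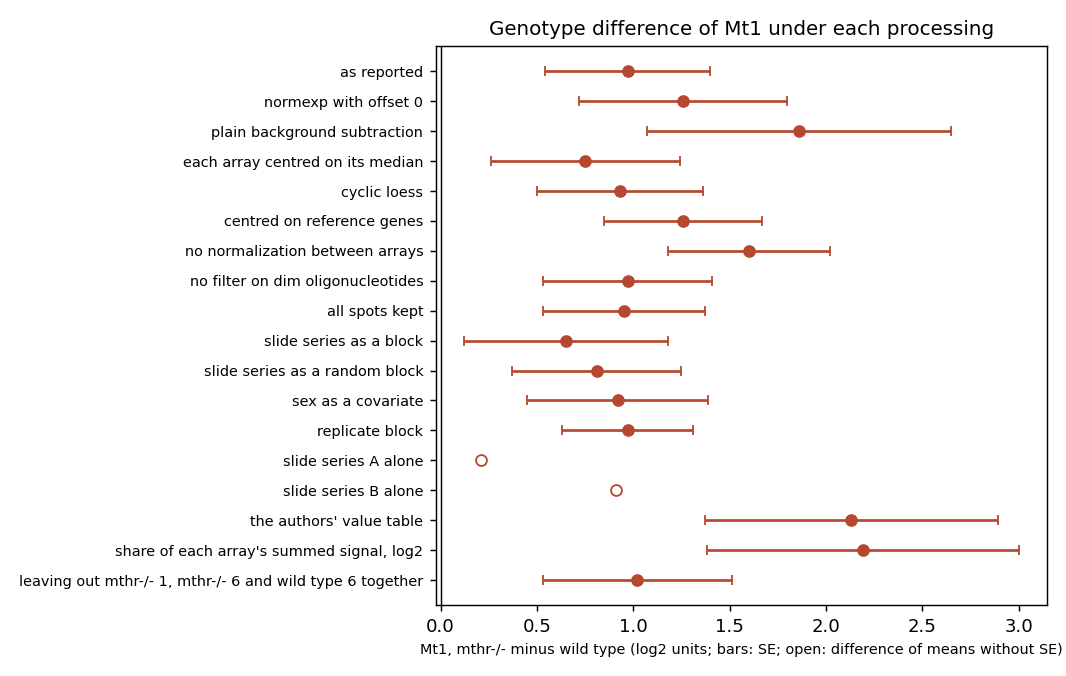
Difference of Mt1 between mthr-/- and wild type in log2 units under each way of processing, with bars for the SE; open points are differences of means within 1 slide series. All points lie above 0, from 0.21 within series A to 2.19 on the scale of shares of the summed signal.

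Spread between animals was set beside the spread between the spots of an array. For Mt1 the SD over animals was 1.04 in mthr-/- and 0.60 in wild type, while the SD over spots within an array was 0.21. Spots of an array share their animal and hybridisation, and the 2 SDs were not tested against each other. The SD over animals is that of means of up to 4 spots. The SD over spots is that of single spots, pooled over the 14 arrays, so the 2 are not on the same footing. Mt1 ranked 4th of 134 genes by its SD in mthr-/- and 11th by its SD in wild type, where the median gene had an SD of 0.17 in mthr-/- and 0.19 in wild type. An entry without a gene name is counted among the 134, and its SD was larger than that of Mt1 in both genotypes. Ftl1 had an SD of 0.35 in mthr-/- and 0.52 in wild type, against a spot SD of 0.33. Sod1 had 0.17 in mthr-/- and 0.37 in wild type, against a spot SD of 0.37. Gsr had 0.06 in mthr-/- and 0.11 in wild type, against a spot SD of 0.04. On this scale the SD in mthr-/- was 1.75 times that in wild type for Mt1, 0.672 times for Ftl1, 0.471 times for Sod1 and 0.506 times for Gsr. For Mt1 the order of the genotypes turned with the scale. With normexp correction and quantile normalization the ratio was 1.61 to 2.62 without single animals at an offset of 50 and 1.45 at an offset of 0, but, on scales added after the data were seen, it was 0.96 with plain background subtraction, 0.928 in the authors' deposited value table and 0.874 on the log2 scale of shares of the summed signal. On those 3 scales it was 1.20, 1.21 and 1.21 without wild type 2, whose Mt1 intensity was 3.2. The ratio of Gsr turned too, to 1.11 in the authors' deposited value table and 1.42 on the scale of shares. At the offset of 50, single animals moved the ratio of each of the 4 genes. Without wild type 1 the ratios were 2.62 for Mt1, 0.802 for Sod1 and 1.80 for Gsr, and without mthr-/- 5 the Ftl1 ratio was 0.177.

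**Figure D4:**
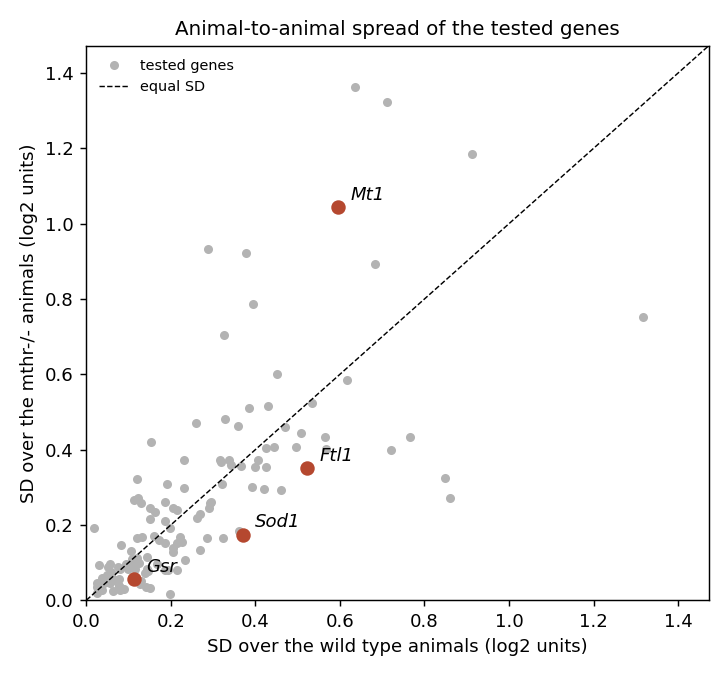
SD over the 7 mthr-/- animals (vertical) against SD over the 7 wild type animals (horizontal), in log2 units, for the 134 tested genes, with the members in red and the line of equal SD dashed. With the offset of 50, Mt1 lies above the line at 1.04 and 0.60 and the other 3 members lie below it. The order for Mt1 was the other way with plain background subtraction, in the authors' deposited value table and as a share of the summed signal, which are not drawn.

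Of the mthr-/- animals, series A held the animals at 9.63, 9.56 and 8.59 and the one at 7.51, series B held one at 9.41 and one at 7.31, and series D the one at 7.55. Female mthr-/- animals averaged 8.51 ± 1.25 (SD, n = 4) and males 8.51 ± 0.95 (SD, n = 3), while wild type females averaged 7.80 ± 0.18 (SD, n = 2) and males 7.44 ± 0.69 (SD, n = 5). The 2 arrays with the highest share of Mb, Myh6 and Slc25a4, mthr-/- 6 and wild type 6, had Mt1 at 7.31 and 7.39. Without them and mthr-/- 1, where the hepatocyte marker Apoh was far below the other mthr-/- animals, the Mt1 difference was 1.02 (SE 0.49), a choice of arrays made after the data were seen. The correlation of each member with the log2 summed intensity, over the 14 arrays, was -0.13 for Mt1, -0.23 for Ftl1, 0.25 for Sod1 and 0.04 for Gsr.

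Sex and slide series played no part in choosing the members and were tested. For females against males, in a model that also held genotype, 0 of 134 genes (0%) were called by limma at an adjusted p below 0.05, and 3 reached an unadjusted p below 0.05. The members had differences of 0.17 (SE 0.47) for Mt1, -0.22 (SE 0.24) for Ftl1, 0.08 (SE 0.16) for Sod1 and -0.01 (SE 0.05) for Gsr. With each array centred on its median they were 0.58 for Mt1, 0.33 for Ftl1, 0.55 for Sod1 and 0.05 for Gsr, so the signs of Ftl1 and Gsr turned, and none was called. The genotype by sex term was called for 0 of 134 genes (0%), with 2 at an unadjusted p below 0.05. For Mt1 that term was -0.35 (SE 0.98), an error wide enough to hide a large difference between the sexes. Between series A and B, limma called 7 of 134 genes (5.22%), none of them a member, and 29 reached an unadjusted p below 0.05. Mt1 was 0.72 (SE 0.53, adjusted p = 0.396) higher in A than in B, Ftl1 differed by -0.42 (SE 0.21, adjusted p = 0.251), Sod1 by -0.37 (SE 0.18, adjusted p = 0.246) and Gsr by 0.16 (SE 0.05, adjusted p = 0.0719). Without mthr-/- 6, Gsr was called with an adjusted p of 0.0435. These values rested on single arrays: Mt1 was at 0.29 without mthr-/- 6, 0.47 without wild type 1 and 1.38 without mthr-/- 5, Ftl1 at -0.66 without mthr-/- 6 and -0.18 without mthr-/- 5, and Sod1 at -0.05 without wild type 1.

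Whether the members moved together was tested over the 14 animals in 6 pairs, with two-sided permutation tests adjusted over the pairs. No pair passed. Mt1 had a Pearson r of 0.10 with Ftl1 (permutation p = 0.743, adjusted 0.849), of -0.16 with Sod1 (p = 0.605, adjusted 0.849) and of 0.32 with Gsr (p = 0.27, adjusted 0.541). Its Spearman rho was -0.05 with Ftl1 (permutation p = 0.879), -0.29 with Sod1 (p = 0.318) and 0.23 with Gsr (p = 0.428). Ftl1 and Sod1 had an r of 0.05 (permutation p = 0.849) and a rho of 0 (p = 1). Ftl1 and Gsr gave an r of -0.60 (permutation p = 0.0306, adjusted 0.146) and a rho of -0.67 (p = 0.0101, adjusted 0.0607), and r was -0.58 without the 2 animals farthest from the Ftl1 median. Sod1 and Gsr gave an r of -0.62 (permutation p = 0.0486, adjusted 0.146) but a rho of -0.08 (p = 0.796). Without the 2 animals farthest from the Sod1 median that r was -0.01, so it rested on those animals, wild type 1 and wild type 6. Without those farthest from the Mt1 median, mthr-/- 1 and mthr-/- 4, Mt1 had an r of 0.25 with Ftl1, -0.34 with Sod1 and 0.17 with Gsr. Without those farthest from the Ftl1 median, mthr-/- 5 and wild type 6, Ftl1 and Sod1 had an r of 0.50.

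**Figure D5:**
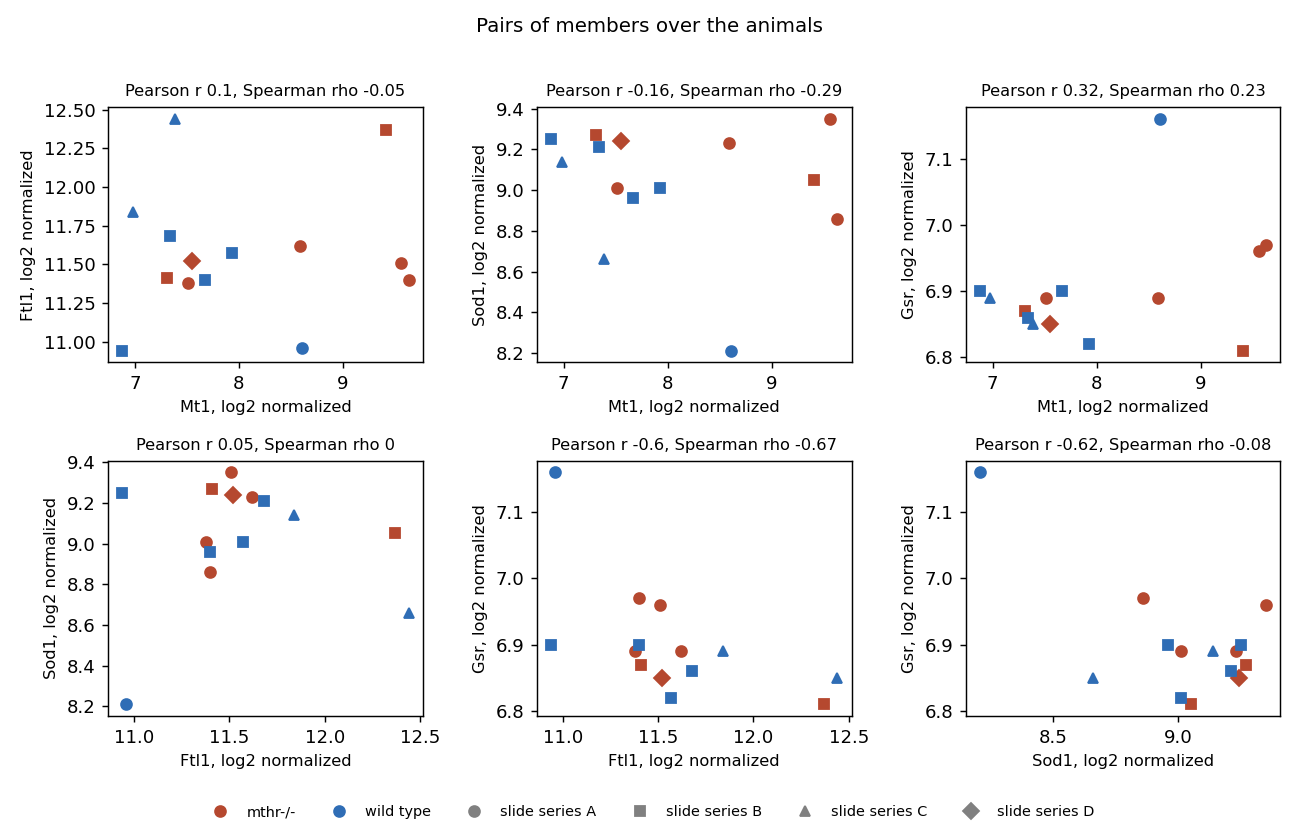
Log2 normalized intensity of each pair of members over the 14 animals, mthr-/- in red and wild type in blue, with the slide series as symbols. Wild type 1 stands alone at the highest Gsr value, 7.16, and the lowest Sod1 value, 8.21.

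Within the genotypes, exact permutation tests gave no pair that passed after adjustment. Within mthr-/- (n = 7) r ran from -0.64 for Ftl1 with Gsr to 0.42 for Mt1 with Gsr. Within wild type (n = 7) it ran from -0.82 for Mt1 with Sod1 (exact p = 0.0268, adjusted 0.161) to 0.66 for Mt1 with Gsr. Within series B (n = 6) 3 pairs passed: Mt1 with Ftl1 at 0.92, Mt1 with Gsr at -0.80 and Ftl1 with Gsr at -0.82 (adjusted exact p = 0.0417 each). In series B, mthr-/- 5 had the highest Mt1 and Ftl1 and the lowest Gsr, and series A has too few arrays for the same test. The Gsr intensity of mthr-/- 5, 1.0, lay below the background limit of its array, 1.36. Without normalization between arrays, where the brightness of an array moves all its genes alike, all 6 values of r were positive, from 0.28 to 0.83, and 4 pairs passed (adjusted permutation p from 0.00246 to 0.0457). Brightness and the members cannot be told apart in these values. With arrays centred on their median Ftl1 and Sod1 had an r of 0.80 (permutation p = 0.00054, adjusted 0.00324).

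Over the 14 arrays, the genes with the pattern most like Mt1 were Slc5a3, a myo-inositol carrier, with an r of 0.75, Serpina3n, an acute phase protease inhibitor, with 0.67, Cdo1, which oxidises cysteine, with 0.64, the lysosomal protein gene Psap with 0.61 and Timp1, an inhibitor of metalloproteinases, with 0.60. Slc5a3 and Timp1 were dim, with a median intensity of 5.1 and 3.0. The lowest values were -0.67 for the export pump gene Abcc3 and -0.59 for the ribosomal protein gene Rps28. These values, and those for the other members below, pool both genotypes. Centred on the mean of each genotype, r with Mt1 was 0.74 for Slc5a3, 0.58 for Serpina3n, 0.47 for Cdo1 and 0.58 for Psap. It was 0.77 for Timp1, -0.62 for Abcc3 and -0.44 for Rps28, so the order changed. Serpina3n was highest on mthr-/- 4, at 7.87, where Mt1 was highest too, and next on mthr-/- 1, at 7.34, but on mthr-/- 5, where Mt1 was at 9.41, it was at 7.12, as on wild type 7, where Mt1 was at 6.98. The pattern of Ftl1 was most like those of the heat shock gene Hspb1 (r 0.82), the adhesion gene Icam1 (0.80), Nme2, a nucleoside diphosphate kinase (0.77), Bcl2l1, an inhibitor of cell death (0.75), and Ndufs3, a subunit of respiratory complex I (0.72). It was least like those of the water channel gene Aqp1 (-0.83) and of Slc6a12, a betaine carrier (-0.79). For Sod1 the highest values were those of Shmt2, the mitochondrial serine hydroxymethyltransferase (0.87), Pon1, a paraoxonase (0.78), Mst1 (0.75), Sord, which oxidises sorbitol (0.69), and Cth, which releases cysteine from cystathionine (0.63), and the lowest were those of the taurine carrier gene Slc6a6 (-0.74) and Gsr (-0.62). For Gsr they were Psap (0.83), Slc6a12 (0.81), Aqp1 (0.77), the apolipoprotein gene Apoa1 (0.74) and the amino acid carrier gene Slc38a4 (0.71), and the lowest were the mitochondrial superoxide dismutase gene Sod2 (-0.69) and the chaperonin gene Hspd1 (-0.67). These values are picked as extremes of 133 genes measured on the same arrays, and several were dim: the median intensity was 4.9 for Slc6a12, 6.5 for Icam1, 7 for Bcl2l1 and 13 for Aqp1, against 12.4 for Gsr.

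Of an antioxidant, glutathione and thioredoxin list of 51 genes, 10 were matched on the array and 6 passed the filter. Limma called 0 of the 6, and 5 were higher and 1 lower in mthr-/-, with a median difference of 0.08, against 0.00 over all 134 genes, of which 66 were higher. This split depended on the scaling, since median-centred arrays gave 2 of 6 higher and arrays without normalization 6 of 6. Beside Sod1 and Gsr, Pon1, which hydrolyses lactones and lipid peroxides in plasma, averaged 9.13 ± 0.35 in mthr-/- and 8.84 ± 0.43 in wild type (SD, n = 7 each), a difference of 0.29 (SE 0.20). Catalase, Cat, which breaks down hydrogen peroxide, averaged 7.52 ± 0.40 in mthr-/- and 7.38 ± 0.42 in wild type (SD, n = 7 each), a difference of 0.13 (SE 0.21). Sod2 differed by 0.02 (SE 0.10) and Gss, the glutathione synthetase gene, by 0.03 (SE 0.05). The adjusted p of these 4 genes ran from 0.581 to 0.904 in limma. Sod3, Hmox1, Hmox2 and Nqo1 were above the limit on 2 to 6 arrays and were not tested. Hmox1, the inducible haem oxygenase gene, was above the limit on 3 of 14 arrays. Its median intensity was 4.5 in mthr-/- (highest 25.8) and 0.5 in wild type (highest 3.2). The other untested genes were also higher in mthr-/-. Their medians, mthr-/- against wild type, were 4.5 against -1 for Sod3, 11.3 against 2.8 for Hmox2 and 5 against 0 for Nqo1. These intensities are not normalized between arrays, and without normalization the median gene was shifted by 0.81.

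Of the metal and iron list of 28 genes, Mt1 and Ftl1 alone were matched on the array, so no further metallothionein, ferritin chain or iron carrier was set beside them. The 20 oligonucleotides that kept the files' name were not matched to the lists. Of the acute phase list, Serpina3n, Vcam1 and Icam1 were tested and 0 of 3 called. Serpina3n averaged 7.20 in mthr-/- and 6.97 in wild type, a difference of 0.23 (SE 0.13, limma adjusted p = 0.578), and Vcam1 differed by 0.02 (SE 0.04, adjusted p = 0.874). The 2 hepatocyte markers with the smallest p had differences of opposite sign: Apoa1 averaged 9.85 in mthr-/- and 8.95 in wild type, a difference of 0.89 (SE 0.54), and Apoh 8.88 in mthr-/- and 9.50 in wild type, a difference of -0.62 (SE 0.36), both with an adjusted p of 0.578. Of the reference genes, Gapdh differed by -0.34 (SE 0.23, adjusted p = 0.581). The part of these genes in the values of the members was not tested.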

How the data were processed

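Fluorescent cDNA of 1 colour was made from total RNA with oligo-dT priming, per the labels' protocols, and hybridised to arrays with 4 spots per oligonucleotide. The deposited array files hold the intensity and local background of each spot on a linear scale, per the file headers, with columns that the authors scaled. The authors' deposited table of medians gives the log10 ratio of mthr-/- over wild type. The sources used here do not name the scanner or the image software. The value table has a linear scale without centring, its columns have medians of 32.8 to 69.4, and how its values of mthr-/- 7 and wild type 5 were made is unknown.

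Spots were corrected with normexp (limma 3.58.1, R 4.3.3, offset 50), arrays were quantile normalized without blanked and plant control spots, and spots were averaged in log2. On mthr-/- 1 a repeated block of spots was counted once. An oligonucleotide entered the tests when above the background limit, the mean plus 2 SD of 16 plant control spots, on at least 7 of 14 arrays, and the brightest represented its gene. That kept 139 oligonucleotides for 134 genes. An entry without a gene name is counted as a gene among the 134 and among the 271 of the array. Names came from RefSeq through the accession for 193 oligonucleotides, the symbol for 53 and a synonym for 18, and 20 kept the files' name. Sod1 is labelled as the copper-zinc enzyme in most files.

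Limma (lmFit, eBayes, two-sided, Benjamini-Hochberg, threshold 0.05) compared the genotypes without covariates, the sexes and slide series A and B with genotype in the model, and genotype by sex. Correlations used 100000 permutations, or all permutations below 10 arrays. On made arrays of 139 oligonucleotides, a known change was put into 12. The genotype fit called 12 of 12 with a log2 change of 2 (median estimate 0.90) and 7 of 12 with 1 (median 0.65). With either change it also called 3 unchanged ones. The members and lists were chosen with earlier results of these data known. Named with values are the members, every tested gene of the antioxidant and metal lists, the 2 genes of smallest p of each other list, and for each member the 5 genes of highest and 2 of lowest correlation, less some that are not reported here. No column of values was left unmapped (0). Alternatives in background correction, scaling, filter, spots, blocks, sex and arrays were run. Precision is limited by the number of arrays, and nothing says whether animals shared a litter.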

Additional observations from a re-analysis of the deposited data

Results flagged for a closer look

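For the members and the other genes named from the lists, 34 groups of 7 animals were looked at for a value far from the rest of its genotype, and 11 had one, where chance alone gives about 1 in 20. Among the members, Ftl1 was at 12.37 on mthr-/- 5, against 11.62 for the next animal of its genotype, and Gsr was at 7.16 on wild type 1, against 6.90 for the next. These are log2 normalized intensities. On wild type 1, Pon1 was also far below the other wild type animals, at 7.97 against 8.72. Serpina3n was at 7.87 on mthr-/- 4, the animal with the highest Mt1, against 7.34 for the next. Apoh was at 6.87 on mthr-/- 1, where the next lowest mthr-/- animal was at 8.77, and Col3a1, a fibrillar collagen gene, was at 6.99 on mthr-/- 7 against 6.83.

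The muscle markers Mb and Slc25a4 stood out on 2 arrays. Mb, the myoglobin gene, was at 7.97 on mthr-/- 6 against 6.99 for the next mthr-/- animal, and at 7.26 on wild type 6 against 6.98 for the next wild type animal. Slc25a4, an adenine nucleotide carrier of muscle mitochondria, was at 7.64 on mthr-/- 6 against 6.91, and at 9.08 on wild type 6 against 6.93. On wild type 6, the fibronectin gene Fn1 was at 6.78 against 7.43. Their part in the values of the members was not tested.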

How the results depend on the processing

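The Mt1 difference was positive under all 31 alternatives run, from 0.21 to 2.19. It was 1.86 with plain background subtraction, 2.13 with the authors' value table and 2.19 as a share of each array's summed signal, which was added after the data were seen. Ftl1 was at -0.33 with arrays centred on their median, 0.50 with slide series as a block, 0.51 within series A and 0.52 without normalization between arrays. Sod1 was at -0.32 with arrays centred on their median, 0.53 without normalization and 0.90 within series A. Gsr was at 0.52 centred on reference genes, 0.86 without normalization, -0.23 within series A and 0.08 as a share of the summed signal. Without normalization limma called 1 of 134 genes for genotype, and 0 under the other 28 alternatives. Sex and genotype by sex gave 0 calls under all 18. The count for series A against B was 0 with arrays centred on their median and 0 without normalization, and 1 to 13 without 1 array: 13 without mthr-/- 1, 11 without mthr-/- 3, 1 without mthr-/- 5 or wild type 1, and 3 without wild type 2, 3, 4 or 5. The cause was not tested.

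Within series B, r was 0.92 for Mt1 with Ftl1, -0.80 for Mt1 with Gsr and -0.82 for Ftl1 with Gsr. Without normalization r was 0.65 for Mt1 with Gsr, 0.83 for Ftl1 with Sod1, 0.70 for Ftl1 with Gsr and 0.58 for Sod1 with Gsr, and with arrays centred on their median it was 0.80 for Ftl1 with Sod1. The ratio of the SDs, mthr-/- over wild type, was for Mt1 0.874 as a share, 0.96 with plain subtraction and 0.928 in the authors' value table, and for Gsr 1.42, 0.989 and 1.11, scales added after the data were seen. Leaving out 1 animal moved this ratio from 0.177 to 0.936 for Ftl1, from 0.36 to 0.802 for Sod1 and from 0.431 to 1.80 for Gsr.

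With the animal number as a replicate block, Mt1 was at 0.97 (SE 0.34) and limma called 0 genes. Deviations of same-numbered animals correlated at -0.23 to 0.35, above 0.1 for 4 of 7 numbers, and 0 of 7 correlated best with their own number. These 7 values cannot show whether same-numbered animals shared more than a number. Gsr is limited by signal, at 1.0 to 51.2 units over background.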
